A study of Cocos nucifera and Zingiber officinale with 11 samples.

Results

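MIR-169 and MIR-172 are conserved plant miRNA families that act on transcription factor genes, and the values below are those of both families in the small RNA of edible plant-derived exosome-like nanoparticles (EPDELNs). The members were taken as every miRNA name numbered MIR-169 or MIR-172, which gave 25 of the 418 names of the merged table, 18 in MIR-169 and 7 in MIR-172. EPDELNs came from blueberry (Vaccinium), coconut (Cocos nucifera), ginger rhizome (Zingiber officinale), grapefruit (Citrus x paradisi), Hami melon (Cucumis melo), kiwifruit (Actinidia chinensis), orange (labelled Citrus reticulata), pea (Lathyrus oleraceus), pear (Pyrus), soybean (Glycine max) and tomato (Solanum lycopersicum), and each plant gave a single library without replicates. The pea library carries lima bean in its title and tissue labels and pea in its description, and it is called pea here. Juice was squeezed by hand from blueberry, grapefruit, kiwifruit, orange and pear whereas soybean, tomato, pea, ginger and Hami melon were ground in PBS, and for coconut the way is not stated in the sources used here.

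The MIR-169 mature strand comes from the 5p arm of its hairpin. It pairs with mRNAs of NF-YA genes, which encode a subunit of the NF-Y complex that binds CCAAT boxes, and the family is best known from drought, nitrogen and phosphate responses and from nodule development in Medicago truncatula. The MIR-172 mature strand comes from the 3p arm and pairs with mRNAs of AP2-like genes, among them APETALA2 and the TOE repressors of flowering in Arabidopsis thaliana. MIR-172 is known from floral organ identity, the passage from the juvenile to the adult phase, and fruit growth. The opposite strand of each duplex (3p of MIR-169, 5p of MIR-172) is usually degraded when the mature strand is loaded into an Argonaute protein. Plant miRNAs pair with their targets along nearly the whole strand, so the seed is used here only to group sequences.

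The sequences below are the ones the results turn on, each being the most abundant read sequence listed for that name and library. They run 5′ to 3′, are written with T as deposited, and carry the seed (bases 2 to 8) in capitals. A name starts with the code of the reference species in miRBase (ath for Arabidopsis thaliana, aly for Arabidopsis lyrata, mtr for Medicago truncatula, gma for soybean, zma for maize, osa for rice, cme for melon, csi for sweet orange, gra for the cotton Gossypium raimondii, vvi for grapevine, bdi for Brachypodium distachyon, sly for tomato, tcc for cacao and ata for Aegilops tauschii), not of the plant studied. The first set shows the MIR-169 strand from the 5p arm, with the shared seeds AGCCAAG and GAGCCAA, which hold the same core shifted by 1 base, and with variants of that core.
mtr-MIR-169g in soybean and pea: cAGCCAAGgatgacttgccgg
vvi-MIR-169v in Hami melon: aAGCCAAGgatgaattgccgg
vvi-MIR-169v in kiwifruit: aAGCCATGgatgaattgccgg
bdi-MIR-169n in kiwifruit: tAGCCAAGggtgacttgcctat
cme-MIR-169k in Hami melon: tGAGCCAAggatgacttgcct
cme-MIR-169t in Hami melon: tGAGCCAAgaatgacttgccggc
aly-MIR-169n-5p in Hami melon: tAGCCAAAgatgacttgcctg
tcc-MIR-169g in pear: tAGCCAGGgatgacttgcct
mtr-MIR-169d-5p in blueberry: aAGCCAGGggatgacttg
mtr-MIR-169d-5p in tomato: aGCCAGGGgatgacttg

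The second set shows the strand from the 3p arm of MIR-169, which led the family in soybean and pea and shares the seed GCAAGTT in 5 values of 4 names. The tomato 3p sequence is shown beside them because its seed differs.
zma-MIR-169a-3p in soybean: gGCAAGTTgttcttggcta
zma-MIR-169a-3p in pea: gGCAAGTTgttcttggct
ath-MIR-169a-3p in soybean: gGCAAGTTggccttggcta
sly-MIR-169e-3p in tomato: tGGCAAGCatctttggcgact

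The third set holds the MIR-169 names whose listed sequence could be put on neither arm, shown because they are short and far from their references.
osa-MIR-169i-5p.2 in soybean, pea and kiwifruit: gGGGATGTagctct
osa-MIR-169q in orange: cGCCAGAGgagactgc

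The fourth set shows MIR-172, first the 3p strand that acts on AP2-like genes, with the seed GAATCTT in both names, and then the 5p strand, in which 4 different seeds are seen among the names shown.
ath-MIR-172b-3p in kiwifruit, orange and pear: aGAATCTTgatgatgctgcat
gma-MIR-172d in kiwifruit: gGAATCTTgatgatgctgcag
mtr-MIR-172c-5p in kiwifruit and orange: gTAGCATCatcaagattcac
gra-MIR-172a in kiwifruit: gCGGCATCattaagattcac
csi-MIR-172a-5p in orange: gCAGCGTCctcaagattcac
gma-MIR-172h-5p in pear: gCAGCATCatcaagattc

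The authors gave levels in RPM, a read count scaled to a common library total. Within a library all values were whole multiples of a smallest step (tolerance 0.01 reads), which gave back the read counts. The totals used for the scaling ran from 236959 in ginger, 346601 in pea and 526396 in soybean to 6518871 in kiwifruit. All lie below the high quality reads the authors report for the same plants, and far below in ginger, pea and soybean. They are therefore not the sequencing depth. Reads given to any miRNA numbered 4541 in coconut to 377989 in kiwifruit. No value below 5 reads is listed in any library (7 in ginger), so a name or family that is not listed may be present below that limit. The summed RPM of all miRNAs differed from 2939 in coconut to 533332 in soybean, and levels are therefore compared between plants as shares of the summed miRNA level of a library. A fixed list of names was taken to resemble pieces of tRNA or rRNA, and these are called fragment-like here. Their sequences were not compared with tRNA or rRNA. They held from 1.15% of that level in pea to 66.8% in tomato and 87.6% in grapefruit, and these shares enter the denominator. Intervals at the 95% level (Wilson's for shares, the exact Poisson interval for RPM) express counting error alone, not differences between batches of 1 plant. PCR copies of 1 molecule were not told apart.

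MIR-169 was listed in 8 of the 11 EPDELN libraries and MIR-172 in 5, and both were listed in kiwifruit, orange, pear and tomato. MIR-169 alone was listed in soybean, pea, Hami melon and blueberry, and MIR-172 alone in grapefruit. Neither family was listed in ginger or coconut, the libraries with the fewest miRNA reads. With a minimum of 10 reads per value MIR-169 was listed in 6 libraries and MIR-172 in 3. At 29.5 RPM, the smallest value the ginger library lists, MIR-169 was listed in 3 and MIR-172 in 2. This RPM limit stands for a different number of reads in each library. It kept osa-MIR-169i-5p.2 in pea (43.3 RPM, 15 reads) and dropped vvi-MIR-169v in kiwifruit (21.6 RPM, 141 reads). The MIR-169 level was led by soybean, pea and Hami melon, and the MIR-172 level by kiwifruit and orange.

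MIR-169 held 1.90% of the summed miRNA level in soybean (1.85 to 1.95%, 5324 reads), where it was the family of rank 13 among 83. It held 0.737% in pea (0.663 to 0.820%, 338 reads, rank 13 of 56) and 0.613% in Hami melon (0.563 to 0.667%, 538 reads, rank 10 of 52). Pea and Hami melon, whose intervals overlap, were not separable, and both lay below soybean. Kiwifruit followed at 0.0876% (0.0786 to 0.0975%, 331 reads, rank 23 of 53), far below Hami melon. In tomato the share was 0.0382% (50 reads, rank 33 of 78), in pear 0.0196% (22 reads, rank 43 of 57), in blueberry 0.00733% (6 reads, rank 48 of 53) and in orange 0.00320% (6 reads, rank 50 of 52). From tomato down, each library overlapped with its neighbour in this order, whereas the steps from soybean to pea, from Hami melon to kiwifruit and from kiwifruit to tomato were larger than the counting error. When the fragment-like names were left out of the denominator, the value of tomato (0.115%) came to stand above that of kiwifruit (0.0913%). No interval was computed for these shares, so tomato and kiwifruit are not said to be separable on this scale. The tomato share fell to 0.00942% with sequences of 18 nt or more and to 0.00567% within 2 differences of the reference, and under the latter neither blueberry nor orange kept a MIR-169 value. Such limits were applied to all names of a library, so the denominator changed too. In RPM the soybean level (10114) was 10.4-fold that of pea (975), against 2.57-fold by share, because the summed RPM also differs between these libraries.

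MIR-172 held 1.08% of the level in kiwifruit (1.05 to 1.12%, 4096 reads, 628 RPM), where it was the family of rank 10 among 53. In orange it held 0.166% (0.149 to 0.185%, 311 reads, 64.3 RPM, rank 23 of 52) and in pear 0.0382% (0.0284 to 0.0515%, 43 reads, 12.7 RPM, rank 36 of 57). Tomato, with 0.00535% from 7 reads (rank 61 of 78), and grapefruit, with 0.00232% from 6 reads (rank 39 of 43), stood near the smallest value a library lists. The kiwifruit share was 6.53-fold that of orange, and the orange share 4.34-fold that of pear. Only tomato and grapefruit, the lowest in the order, overlapped. When the fragment-like names were left out of the denominator, the order of these 2 libraries turned by value, with 0.0161% in tomato and 0.0187% in grapefruit and no interval computed. Between orange and grapefruit, both Citrus, the MIR-172 share differed beyond counting error.

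**Figure D1:**
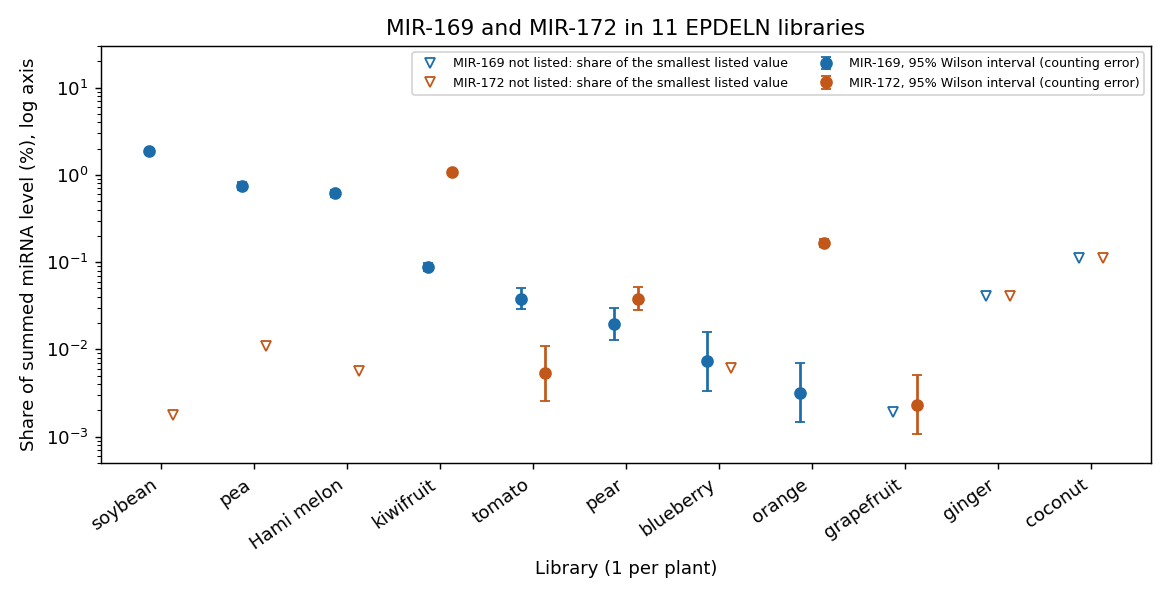
The share of the summed miRNA level (%, log axis) is plotted for MIR-169 (blue) and MIR-172 (orange) in each of the 11 libraries, with filled points and 95% Wilson intervals where a family is listed and open triangles at the share of the library's smallest listed value where it is not. MIR-169 is highest in soybean (1.90%), MIR-172 in kiwifruit (1.08%), and in ginger and coconut the triangles lie above several of the listed values.

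Whether an unlisted family could have been seen depended on the number of miRNA reads in a library. Coconut had 4541 of these, although its scaling total of 1545124 was above those of soybean and pea. At the kiwifruit share of MIR-172, soybean would have held 3042 reads, Hami melon 951, blueberry 887, pea 497, ginger 183 and coconut 49.2, so a share of this size would have been listed in all 6. At the pear share, ginger would have held 6.47 reads and coconut 1.74, below what these libraries list. At the Hami melon share of MIR-169, grapefruit would have held 1588 reads, ginger 104 and coconut 27.8. At the tomato share, grapefruit would still have held 98.9 reads, while ginger would have held 6.46 and coconut 1.73. MIR-169 was thus below the tomato share in grapefruit, and in ginger and coconut a share as low as that of tomato was not detectable with so few miRNA reads.

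How juice was obtained differed along with the plants. MIR-169 was listed in 4 of the 5 squeezed and 4 of the 5 ground libraries, and its shares where listed ran from 0.00320 to 0.0876% in the squeezed and from 0.0382 to 1.90% in the ground libraries. MIR-172 was listed in 4 of the 5 squeezed libraries and in 1 of the 5 ground ones, tomato. Plant and preparation cannot be told apart in this design.

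Over the 11 libraries the mean share was 0.309% ± 0.589 (SD) for MIR-169 and 0.118% ± 0.324 for MIR-172. The difference was 0.192 ± 0.716 percentage points, with MIR-169 higher in 5 libraries, MIR-172 higher in 4 and both unlisted in 2, and it was not larger than the spread between plants (two-sided exact permutation test flipping signs, p = 0.461, adjusted over 2 tests 0.461). Soybean carried most of this difference, which was 0.0211 percentage points without it. MIR-169 had 2.27 ± 2.37 names per library and MIR-172 1.09 ± 1.64, a difference of 1.18 ± 2.32 that did not pass the test either (exact permutation p = 0.160, adjusted 0.320, higher for MIR-169 in 6 libraries, for MIR-172 in 3). The counts of names were not scaled to the size of the families, 18 names for MIR-169 and 7 for MIR-172, so the larger family can list more. The smallest p this design allows is 0.00391.

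Kiwifruit listed the most members, 7 names of MIR-169 and 5 of MIR-172, or 12 of 25, in a library that listed 28.0% of all names in the table. Soybean listed 4 (30.4% of all names), pea 4 (19.1%), Hami melon 5 (19.1%) and blueberry 1 (20.8%), all of MIR-169. Orange listed 1 of MIR-169 and 3 of MIR-172 (26.6% of all names), pear 1 and 2 (22.7%), tomato 2 and 1 (28.2%), and grapefruit 1 of MIR-172 (15.6%). Ginger and coconut listed none of the 25, and listed 7.66% and 9.09% of all names. Of the 25 members, 18 (72%) were listed in 1 library, beside 211 of the 393 other names (53.7%). No member reached more than 5 libraries, whereas other names reached all 11.

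**Figure D2:**
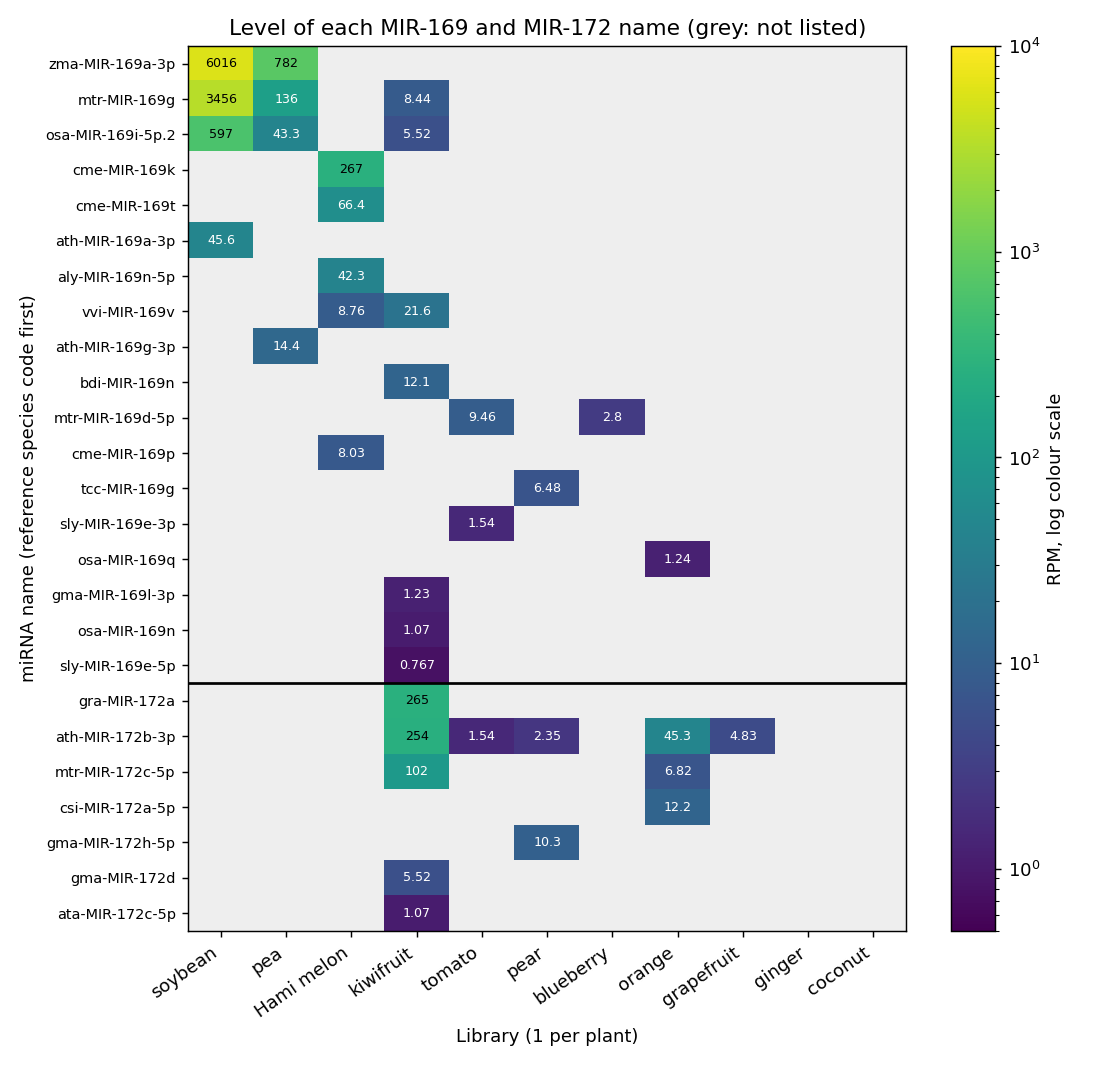
Each cell gives the level in RPM (log colour scale) of 1 of the 25 names (rows, MIR-169 above the black line and MIR-172 below it) in 1 of the 11 libraries (columns), and grey cells are not listed. The names of soybean and pea are largely the same, and most of those they share are also filled in kiwifruit. The names of Hami melon form a set of their own apart from vvi-MIR-169v, and the kiwifruit column has the most filled cells.

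Soybean and pea, both legumes, shared 3 of their MIR-169 names and also the order of these 3. Apart from zma-MIR-169a-3p, the shared names were also listed in kiwifruit, in the same order by RPM. Whether soybean and pea share MIR-169 names more than they share miRNA names at large was not tested. The highest in both was zma-MIR-169a-3p, named for maize, with 6016 RPM in soybean (5809 to 6230, rank 17 of 127 names) and 782 RPM in pea (692 to 881, rank 15 of 80). Its listed sequence had 19 nt in soybean and 18 nt in pea, both identical to the start of the 3p reference and cut short at the 3′ end. It made up 59.5% of the MIR-169 level in soybean and 80.2% in pea.

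The 5p strand followed as mtr-MIR-169g, with 3456 RPM in soybean (rank 19) and 136 RPM in pea (47 reads, rank 37), in both cases 21 nt and identical to the Medicago truncatula reference. In kiwifruit the same name stood at 8.44 RPM (55 reads, rank 61), and there the listed sequence was shifted by 1 base, without the first C and with an added A at the 3′ end. That sequence was as near to the reference of mtr-MIR-169d-5p as to its own, so the name of these reads is uncertain.

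The third shared name, osa-MIR-169i-5p.2, had 597 RPM in soybean (314 reads, rank 41), 43.3 RPM in pea (15 reads) and 5.52 RPM in kiwifruit (36 reads). The same 14 nt sequence was listed in all 3 libraries. It differed from its 22 nt reference at A8G, A9G and G12A (positions counted from the 5′ end of the reference), and lay equally far from both arms of the family. It also resembles the 5′ end of plant tRNAs, which was not tested because no tRNA sequences were used here, so whether these reads are MIR-169 is uncertain. The name was not on the list of fragment-like names, so it stayed in the MIR-169 shares computed without them. They made up 5.90% of the MIR-169 level in soybean, 4.44% in pea and 10.9% in kiwifruit. When values over 2 differences from the reference were left out, which removes this name, the MIR-169 share was 1.79% in soybean, 0.706% in pea and 0.0782% in kiwifruit.

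The fourth name was on the 3p arm in both legumes and rested on few reads. In soybean it was ath-MIR-169a-3p with 45.6 RPM (24 reads, T10G against its reference), and in pea ath-MIR-169g-3p with 14.4 RPM (5 reads, A13G). The pea sequence lies whole within that of soybean, so the listed sequences of these 2 names, each listed in 1 library, differ by 1 base at the 3′ end.

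Hami melon had a different set, all on the 5p arm. cme-MIR-169k, named for melon itself, led with 267 RPM (240 to 296, 366 reads, rank 15 of 80) and held 68.0% of the MIR-169 level. cme-MIR-169t (66.4 RPM, 91 reads, 23 nt) and cme-MIR-169p (8.03 RPM, 11 reads) share its seed GAGCCAA. All 3 melon names were listed in no other library and matched their references without a difference. The remaining names of the library were aly-MIR-169n-5p with 42.3 RPM (58 reads) and vvi-MIR-169v with 8.76 RPM (12 reads), also exact.

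In kiwifruit MIR-169 was spread over 7 names at low level. vvi-MIR-169v was the highest with 21.6 RPM (18.2 to 25.5, 141 reads, rank 42 of 117), and its sequence carried A7T against the grapevine reference that Hami melon matched exactly. bdi-MIR-169n had 12.1 RPM (79 reads, 22 nt, A10G). sly-MIR-169e-5p carried the same substitution A10G and stood at 0.767 RPM, the lowest value the library lists (5 reads). The listed sequences of bdi-MIR-169n and sly-MIR-169e-5p differ over their shared length by A21T alone, so the 2 names may share reads. gma-MIR-169l-3p (1.23 RPM, 8 reads) and osa-MIR-169n (1.07 RPM, 7 reads) completed the set.

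Tomato, pear, blueberry and orange listed MIR-169 through 1 or 2 names each. In tomato mtr-MIR-169d-5p had 9.46 RPM (43 reads, 17 nt) and sly-MIR-169e-3p, named for tomato itself and identical to its reference, 1.54 RPM (7 reads). The tomato sequence under mtr-MIR-169d-5p was 2 edits from its reference and 1 edit from that of tcc-MIR-169g, so it sits nearer to another name than to its own. Blueberry listed the same name alone with 2.80 RPM (6 reads, 18 nt), and its sequence is that of tomato with 1 more base at the 5′ end. Pear listed tcc-MIR-169g, named for cacao, with 6.48 RPM (22 reads) and no difference from the reference. These 3 libraries thus share the core AGCCAGG, against AGCCAAG in the leading 5p names of soybean, pea and Hami melon. Orange listed only osa-MIR-169q, with 1.24 RPM (6 reads, 16 nt) and 5 mismatches or 2 edits to its reference, so whether orange holds MIR-169 rests on this distant match.

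MIR-172 was listed through 7 names. ath-MIR-172b-3p, the strand that acts on AP2-like genes, was the only member of either family in 5 libraries, with 254 RPM in kiwifruit (242 to 267, 1659 reads, rank 15 of 117), 45.3 RPM in orange (219 reads, rank 40 of 111), 4.83 RPM in grapefruit (6 reads, rank 58 of 65), 2.35 RPM in pear (8 reads, rank 79 of 95) and 1.54 RPM in tomato (7 reads, rank 89 of 118). It is high in kiwifruit and orange and near the limit of listing in the other libraries. Its sequence had 21 nt in kiwifruit, orange and pear and lacked the last T in grapefruit and tomato, and no substitution was seen in any of the 5. gma-MIR-172d, which differs from its 21 nt form by A1G and T21G, was listed in kiwifruit alone with 5.52 RPM (36 reads).

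The 5p strand of MIR-172 was listed in kiwifruit, orange and pear under 5 names, of which mtr-MIR-172c-5p alone was listed in more than 1 plant. In kiwifruit gra-MIR-172a had 265 RPM (253 to 278, 1729 reads, rank 14 of 117), close to ath-MIR-172b-3p of the same library, whose interval overlaps with it. Its sequence carried T8C and C11T against the cotton reference and was equally near to that of ata-MIR-172c-5p, so the reads are of MIR-172 5p but their name is uncertain. mtr-MIR-172c-5p had 102 RPM in kiwifruit (665 reads, rank 21) and 6.82 RPM in orange (33 reads), with 1 sequence in both. csi-MIR-172a-5p, named for sweet orange, was listed in orange alone with 12.2 RPM (59 reads) and no difference from its reference. gma-MIR-172h-5p in pear had 10.3 RPM (35 reads, 18 nt, G7T) and was as near to the reference of mtr-MIR-172c-5p as to its own. ata-MIR-172c-5p in kiwifruit stood at 1.07 RPM (7 reads, T2C).

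The species code of a name matched the plant studied for some members and not for others. Of the 3 members with the code of soybean, gma-MIR-169l-3p and gma-MIR-172d were listed in kiwifruit and gma-MIR-172h-5p in pear, and none in soybean. The 3 melon names were listed in Hami melon alone, csi-MIR-172a-5p in orange alone, and of the 2 tomato names sly-MIR-169e-3p in tomato and sly-MIR-169e-5p in kiwifruit.

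The arm decides which genes a strand can act on, and the listed sequences were therefore sorted by arm from their distance to members whose names give it. All reads of a name in a library were given the arm and length of its most abundant sequence, the only one listed. Of the MIR-169 reads with an arm, 63.7% (62.4 to 65.0%) were 3p in soybean and 85.4% (81.2 to 88.9%) in pea. Both legumes thus had more of the strand opposite to the one that acts on NF-YA genes. With this sorting pea had more of it than soybean beyond counting error, which did not hold with arms from names alone. In Hami melon 0 of 538 reads were 3p (upper bound 0.709%), in kiwifruit 2.71% (1.38 to 5.26%, 8 reads of 3p) and in tomato 14% (6.95 to 26.2%, 50 reads). The tomato value turned with the processing, because its listed 5p sequence has 17 nt and lies far from its reference. With sequences of 18 nt or more, or within 2 differences of the reference, only sly-MIR-169e-3p was left and the 3p share was 100%, and with values of 10 reads or more it was 0% in tomato and in kiwifruit. Pear (22 reads) and blueberry (6 reads) listed 5p names alone, and the orange name had no arm. A 3p name below 5 reads would not be listed, so these zeros hold for listed reads only.

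For MIR-172 the strand that acts on AP2-like genes is 3p, and the opposite 5p strand held 58.6% (57.1 to 60.1%) of the level in kiwifruit, 29.6% (24.8 to 34.9%) in orange and 81.4% (67.4 to 90.3%, 43 reads) in pear. The 3 intervals do not overlap, with orange the lowest and pear the highest. Grapefruit and tomato listed ath-MIR-172b-3p alone, from 6 and 7 reads. The 5p share in kiwifruit includes gra-MIR-172a, a name with no arm in it. By names that end in 5p or 3p alone it was 28.8%. The 3p share of MIR-169 was then 91.0% (90.1 to 91.9%) in soybean and 94.8% (91.7 to 96.9%) in pea, with overlapping intervals. In both legumes mtr-MIR-169g drops out by this rule and osa-MIR-169i-5p.2 counts as 5p.

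**Figure D3:**
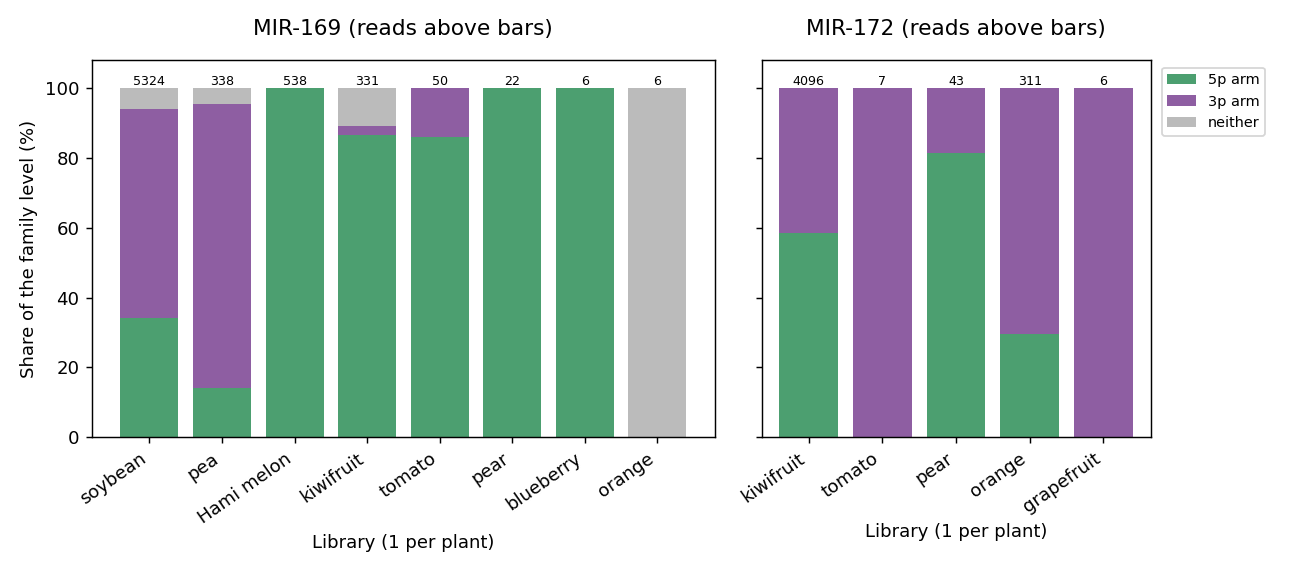
Bars give the share of the family level (%) on the 5p arm (green), on the 3p arm (purple) and on neither (grey) in each library that lists the family, MIR-169 on the left and MIR-172 on the right, with the reads of the family above each bar. The grey part is inside the denominator here, unlike in the 3p shares of 63.7% in soybean and 85.4% in pea, which are of reads with an arm. Purple fills most of the MIR-169 bar in soybean and pea, and green the bar in Hami melon.

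The strands listed for a library were laid against each other as they would lie in a duplex. In soybean mtr-MIR-169g and zma-MIR-169a-3p overlapped over 19 bases with 15 Watson-Crick pairs, 3 G:U pairs and 1 base unpaired, and the 5p strand had a 3′ overhang of 2 bases. In pea 18 bases overlapped, with 15 Watson-Crick and 3 G:U pairs and none unpaired. In kiwifruit mtr-MIR-172c-5p and ath-MIR-172b-3p overlapped over 19 bases, with 17 Watson-Crick pairs, 1 G:U pair and 1 base unpaired, and gra-MIR-172a with the same 3p strand formed 16 and 2 with 1 unpaired. In pear all 18 bases of gma-MIR-172h-5p paired with ath-MIR-172b-3p as Watson-Crick pairs. The 3p strand of MIR-172 had a 3′ overhang of 2 bases in kiwifruit and pear. These strands pair although their names come from different reference species. In tomato mtr-MIR-169d-5p and sly-MIR-169e-3p left 8 of 17 bases unpaired (6 Watson-Crick, 3 G:U), so the 2 listed tomato sequences do not form such a duplex with each other. Hairpin sequences and genome positions were not used here.

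The families differed in how well their sequences matched. Of the 25 MIR-169 values, 11 matched the reference without a difference and 19 lay within 2 differences of it when no gap was allowed and bases outside the reference were counted. The 6 others were the 3 values of osa-MIR-169i-5p.2, both of mtr-MIR-169d-5p and that of osa-MIR-169q, and all 6 came within 2 edits once gaps were allowed. All 12 MIR-172 values lay within 2, and 9 of them had no difference. MIR-169 sequences had 14 to 23 nt, with 14 of 25 in the 20 to 22 nt typical of plant miRNAs and 5 under 18 nt, and 11 of the 12 MIR-172 sequences had 20 to 22 nt. Over both families 31 of 37 values (83.8%) lay within 2 differences, beside 814 of 913 (89.2%) for all other names, and 25 of 37 (67.6%) had 20 to 22 nt, beside 672 of 913 (73.6%). The share resting on 10 reads or fewer was 29.7% for the members and 22.6% for other names, and 6 of 37 (16.2%) were among the 20 highest names of their library, beside 214 of 913 (23.4%). No listed member sequence lay within, or held, that of a name outside the families, so an overlap of whole sequences with other families was not seen.

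**Figure D4:**
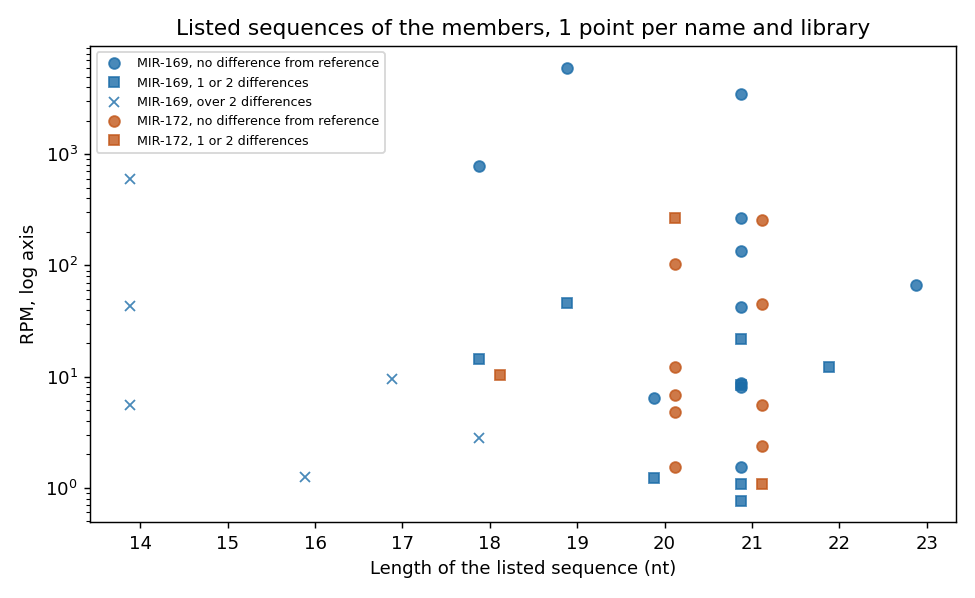
Each point is 1 of the 37 listed values, placed by the length of its listed sequence (nt, families set slightly apart) and its level (RPM, log axis), with circles for no difference from the reference, squares for 1 or 2 and crosses for more than 2. All crosses are MIR-169 sequences of 14 to 18 nt, and the MIR-172 points lie at 20 to 21 nt apart from 1 at 18 nt.

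In Arabidopsis thaliana MIR-156 lowers SPL transcription factors, which in turn raise MIR-172, so that MIR-156 marks the juvenile and MIR-172 the adult phase. The families on SPL genes (MIR-156, MIR-157, MIR-529 and MIR-535, 26 names) were therefore set beside MIR-172. They were listed in all 11 libraries, with 2 to 11 names, and held 11.2% of the level in pea, 5.68% in coconut, 2.53% in blueberry, 2.03% in kiwifruit, 2.02% in soybean, 1.82% in ginger, 0.992% in pear, 0.692% in Hami melon, 0.219% in orange, 0.0901% in tomato and 0.0405% in grapefruit. The share of these families together was above that of MIR-172 in every library, 6 of which listed no MIR-172. It was 1.32-fold the MIR-172 share in orange and 1.87-fold in kiwifruit, where MIR-535 alone held 1.88%, and 16.9-fold in tomato, 17.5-fold in grapefruit and 26.0-fold in pear. MIR-156 alone held less than MIR-172 in kiwifruit (0.0902% against 1.08%) and in orange (0.0416% against 0.166%). MIR-157, which also acts on SPL genes, held 0.0526% in kiwifruit and 0.141% in orange. With MIR-157 counted in, the order in orange turns by value, whereas that in kiwifruit stays. MIR-156 alone held more than MIR-172 in pear, tomato and grapefruit. Pea, the library with the highest share of the SPL families (MIR-156 alone 10.9%), listed no MIR-172. Neither did blueberry, coconut, ginger, Hami melon or soybean. These values come from EPDELNs with 1 library per plant and carry no comparison of ages.

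Among the 63 families listed in 3 or more libraries, the 3 whose share followed that of MIR-169 most closely over the 11 libraries were MIR-7767 (Spearman rho 0.79, listed in 3 libraries), MIR-5082 (0.68, in 3) and MIR-159 (0.66, in all 11), a family that acts on GAMYB-like genes. For MIR-172 they were MIR-827 (0.73, in 5), which acts on SPX domain genes, MIR-858 (0.70, in 4), which acts on MYB genes, and MIR-390 (0.69, in 5), which starts the production of ta-siRNAs. MIR-169 and MIR-172 had a rho of -0.08 with each other. These values describe 11 libraries in which shares have a common denominator and many are 0 in the same libraries with few miRNA reads. They are therefore given with no test.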

How the data were processed

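Each of 11 plants gave 1 small RNA library of EPDELNs. Filtered reads were identified by the authors with MIRPIPE against the mature plant entries of miRBase, allowing 2 mismatches, and the authors deposited the levels as RPM. Which reads make up the total behind RPM is not given in the sources used here. The deposited RPM were used without further normalization, from a merged table and single files whose 950 values above 0 were the same (tolerance 1e-08). Assignment to the nearest of many close references can split the reads of 1 miRNA over several names.

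The members, the lists and the named families were chosen with earlier results of these data known. All 25 members are accounted for. Those with 20 RPM or more, in 2 or more libraries, or over 2 differences from the reference were described one by one, and others were added. Reads were recovered from the RPM steps (largest deviation 2.22e-07 of a read). A sequence was given the arm whose named references were nearest in edits when the other arm was at least 3 edits farther, a limit chosen after the sequences were seen. Alternatives were a minimum of 10 reads, a limit of 29.5 RPM common to all libraries, 18 nt or more, 2 or fewer differences, no fragment-like names, log2 scales with 1 or 0.1 added, arms from names, and leaving out each library. The tools were pandas 2.3.3, numpy 2.4.6, scipy 1.17.1, matplotlib 3.10.9 and Python 3.11.15. Simulated data with known answers were used to check the step recovery, the sequence distances and the permutation test. No genome was used here, and target prediction was not analysed.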

Additional observations from a re-analysis of the deposited data

How the results depend on the processing

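The differences between the families kept their sign and neither test over libraries passed under the alternatives. Without the fragment-like names tomato and kiwifruit changed places by value in the order of MIR-169 shares, and tomato and grapefruit in that of MIR-172. No intervals were computed for these shares, so the new orders are not said to exceed counting error. At 10 reads or more MIR-169 was listed in 6 libraries in place of 8, and MIR-172 in 3 in place of 5. At 29.5 RPM or more, the smallest value the ginger library lists, MIR-169 was listed in 3 libraries with 10 values and MIR-172 in 2 with 4. That limit stands for different numbers of reads in different libraries, so these counts also depend on the scaling. The orange share of MIR-172 was then 0.118% and its 5p arm share 0%. With sequences of 18 nt or more the MIR-169 share in Hami melon was 0.739% and the MIR-172 share in kiwifruit 1.13%, and without the fragment-like names they were 0.715% and 1.13%, with 2.16% for MIR-169 in soybean. No member value was removed from these families in these libraries, so the shares moved through the denominator alone. Within 2 differences of the reference MIR-169 in soybean was 1.79%. The 3p share of MIR-169 in tomato went from 14% to 100% under both sequence limits and to 0% at 10 reads. With arms from names alone the 3p share of MIR-169 was 94.8% in pea and 91.0% in soybean, with overlapping intervals. The 5p share of MIR-172 in kiwifruit was then 28.8%. Leaving out 1 library moved the share difference between 0.0211 percentage points without soybean and 0.310 without kiwifruit (exact permutation p 0.172 to 0.922) and the difference in names between 0.8 and 1.5 (exact permutation p 0.0938 to 0.320). With log2 of RPM in place of shares, the mean difference between the families was 2.19 log2 units with 1 RPM added (exact permutation p = 0.254). It was 3.06 with 0.1 added (exact permutation p = 0.223), so its size depends on the amount added. No paired analysis was possible because plants have 1 library each, so no replicates could be paired between plants, while both tests over libraries already set the families against each other within a library. Values of 5 to 10 reads carry wide intervals, and a share is limited by the few plants and by reads that close references divide.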
